A study of Mus musculus with 8 samples.

Results

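Transcripts of the Polycomb repressive complexes PRC1 and PRC2, of the Bap1 deubiquitinase complex and of the H3K27 demethylases were described in malignant mesothelioma of mice, a cancer that arises from the lining of body cavities. The 47 genes came from a written list of complex subunits that was matched to the count tables by mouse symbol, and all 47 matched a single gene identifier among the 52636 genes of each table. RNA-seq had been made from 6 triple knockout samples, in which Nf2, Cdkn2a and Bap1 were the targeted genes, and from 2 double knockout samples, in which Nf2 and Cdkn2a were targeted. Loss of Nf2 and Cdkn2a was therefore common to both groups, and Bap1 was the only gene by which the genotypes were labelled apart. The series' title names conditional mouse models. What drove the deletions, how many mice were used and how old they were is not given in the sources at hand, so p-values measure only the spread between these samples. Samples were numbered in the order of deposition, and a number pairs no samples.

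Polycomb proteins keep developmental genes silent. PRC2 places methyl groups on lysine 27 of histone H3 through Ezh1 or Ezh2, and PRC1 places ubiquitin on histone H2A through Rnf2 or Ring1. Bap1, bound to an Asxl protein, removes that ubiquitin, so that it acts against PRC1, and BAP1 is a tumour suppressor gene that is often lost in human mesothelioma.

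Depth was 28326756 to 30232440 counts per triple sample and 32082535 and 26847202 counts in double samples 1 and 2. Levels are CPM, counts scaled to library size with TMM factors, which ran from 0.994 to 1.10 in the triple samples and were 0.771 and 1.03 in double samples 1 and 2. Double sample 1 stood apart: its log2 levels correlated at 0.804 to 0.878 with the triple samples and at 0.892 with double sample 2, over all genes tested. The 25 listed proliferation genes summed to 1524 to 2115 CPM in the triple samples, against 602 and 1899 CPM in double samples 1 and 2. The 10 embryonic muscle genes summed to 4.61 to 138 CPM in the triple samples, against 6483 and 2076 CPM in the double samples. The 10 adult skeletal muscle genes summed to 131 to 13840 CPM in the triple samples, against 69380 and 2794 CPM in double samples 1 and 2, and the 8 fibroblast genes to 19610 to 45300 CPM, against 11630 and 14210 CPM. How such differences in marker levels bear on the genes described was not tested. Of the 10 mesothelial genes, Msln, which encodes mesothelin, was at 12.6 to 194 CPM in the triple samples and at 251 and 342 CPM in the double samples. Krt8 was at 1.23 to 179 CPM in the triple samples and 16.5 and 799 CPM in the double samples, and Krt18 at 6.84 to 71.2 CPM, against 10.7 and 203 CPM. Pdpn was at 79.0 to 204 CPM in the triple samples and 58.5 and 83.7 CPM in the double samples. Calb2 was at or near 0 in all 8 samples, and Wt1, Upk3b and Krt19 exceeded 2 CPM only in triple sample 3, so the labelled tissue was backed by only some of its defining markers. The labels give a culture medium but do not say whether cultures or tumour tissue were sequenced, and leukocyte genes summed to 1923 to 2761 CPM in the triple samples and to 986 and 1937 CPM in the double samples. In such bulk samples, fewer cells of a type and less RNA per cell cannot be told apart.

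Of the 47 genes, all of which passed the filter on low counts, 2 differed between triple and double samples: Cbx7, a PRC1 reader of methylated histone H3, and Pcgf5, a PRC1 subunit that defines one of its variant forms, both lower in the triple samples. A call required a Benjamini-Hochberg adjusted p under 0.05 in edgeR's quasi-likelihood test over the 17709 genes tested. The 2 calls are 4.26% of the genes described, whereas 8.35% of all genes tested were called, 2.94% higher and 5.41% lower. In 12 of the 47 genes (25.5%) the triple and double samples did not overlap, 6 higher and 6 lower, while 24.1% of all genes tested did not overlap, 12.8% higher and 11.4% lower. The share called was under that of genes at large, and the share without overlap was close to it. The median log2 fold change was 0.01 over the 47 genes and 0.02 over all genes tested, and the median size of the change, regardless of sign, was 0.28 and 0.54. Among genes with a mean of at least 10 CPM the median size was 0.27 over 43 of the Polycomb and Bap1 genes and 0.43 over all 10501 such genes. An unadjusted p under 0.05 was found for 12 of the 47 genes (25.5%; 27.9% of all genes tested), and DESeq2 called 8, against 19.1% of all genes. Fits without triple sample 1, 4, 5 or 6 each called 1 of the 47 genes, and 3.61%, 4.53%, 4.62% and 4.72% of all genes. Fits without triple sample 2 or 3 each called 2 of the 47, and 5.3% and 5.17% of all genes. The number of calls moved most when a double sample was left out, as given further below. The median log2 fold change of the 47 genes was then -0.04 without double sample 1 and 0.03 without double sample 2. Once double sample 2 was left out, 30 of the 47 genes did not overlap (63.8%; 67.8% of all genes).

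**Figure D1:**
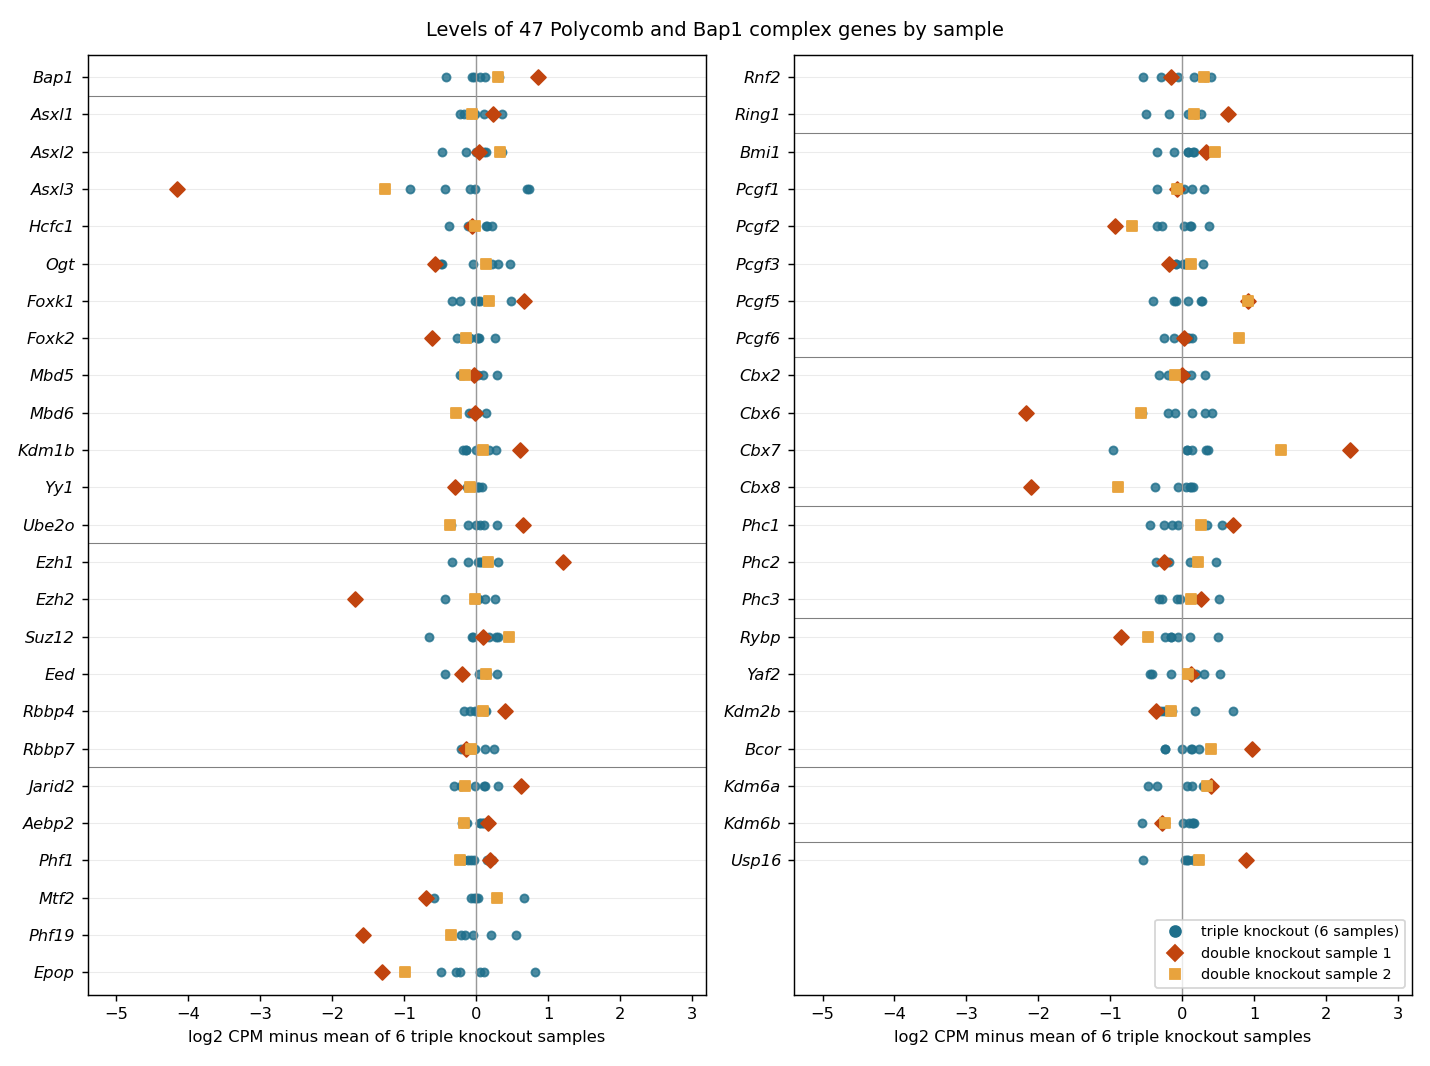
Level of each of the 47 genes in each of the 8 samples, as log2 CPM minus the mean of the 6 triple samples (horizontal axis), grouped by complex. Circles are triple samples, the diamond is double sample 1 and the square is double sample 2. Double sample 1 lies outside the triple range for 30 of the 47 genes and double sample 2 for 17.

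Bap1 itself (chromosome 14, 31251450 to 31259944, plus strand, GRCm38) was counted in all 8 samples, at 56.8, 59.97, 55.7, 43.1, 72.1 and 63.1 CPM in triple samples 1 to 6 and at 106 and 71.2 CPM in double samples 1 and 2. Triple sample 5 was slightly above double sample 2, so the groups overlapped, and double sample 1 was the highest. Bap1 averaged 58.5 ± 9.55 CPM (SD, n = 6) in the triple samples and 88.4 ± 24.3 CPM (SD, n = 2) in the double samples. The log2 fold change was -0.60 ± 0.22 (SE) and did not pass the test (adjusted p = 0.122). Counts over the whole gene include exons outside a deleted part, and which exons were deleted is not given in the sources at hand, so this level checks the labels only weakly. Without double sample 2 the value was -0.84 with adjusted p = 0.0349, and without double sample 1 it was -0.29 with adjusted p = 0.653.

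None of the 12 genes of Bap1's partners was called by edgeR (8.35% of all genes tested). An unadjusted p under 0.05 was found for 1 (27.9% of all genes), and DESeq2 called 1, Asxl3 (19.1% of all genes). Asxl1, Asxl2 and Asxl3 encode the proteins that activate Bap1. Asxl1 and Asxl2 were both present in every sample, Asxl1 at 74.1 to 111 CPM in the triple samples and at 102 and 83.4 CPM in the double samples. Asxl2 stood at 38.5 to 68.2 CPM in the triple samples and at 54.7 and 66.9 CPM in the double samples. Their log2 fold changes were -0.08 for Asxl1 (95% interval -0.52 to 0.35) and -0.17 for Asxl2 (-0.67 to 0.33).

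Asxl3 had the lowest level per kilobase of exon of the 47 genes, with a mean of 0.230 CPM per kilobase in the triple samples and 0.0469 in the double samples. It had 5.51, 1.71, 5.42, 3.25, 3.11 and 2.43 CPM in triple samples 1 to 6, against 0.121 CPM, which is 3 counts, and 1.34 CPM in double samples 1 and 2. All triple samples were above both double samples, and triple sample 2 was close to double sample 2. The log2 fold change of 2.28 ± 0.87 (SE) did not pass the test (adjusted p = 0.133). It was 4.85 with adjusted p = 0.0113 without double sample 2 and 1.41 with adjusted p = 0.441 without double sample 1.

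The other partner genes overlapped between the groups. Hcfc1 encodes a scaffold that binds Bap1 and Ogt the enzyme that adds a sugar, O-GlcNAc, to Hcfc1 and other proteins. Ogt was at 203 to 394 CPM in the triple samples and 190 and 312 CPM in the double samples. Hcfc1 stood at 128 to 193 CPM in the triple samples and 159 and 164 CPM in the double samples. Foxk1 and Foxk2, forkhead factors that bind Bap1, differed in opposite directions without passing the test, with log2 fold changes of -0.42 (95% interval -0.95 to 0.11) and 0.37 (-0.08 to 0.81). Mbd5, Mbd6, Kdm1b, Yy1 and Ube2o had log2 fold changes of 0.10, 0.14, -0.37, 0.19 and -0.22. Yy1, a zinc finger factor, and Mbd6, a protein of the methyl-CpG-binding family, were the steadiest genes of all 47: their highest triple sample was 1.16 and 1.18 times the lowest.

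None of the 6 genes of the PRC2 core was called by edgeR or DESeq2, and 1, Ezh1, had an unadjusted p under 0.05. Over all genes tested these shares were 8.35%, 19.1% and 27.9%. Ezh2, the methyltransferase that is typical of dividing cells, had 57.2, 53.5, 38.8, 63.5, 52.6 and 53.6 CPM in triple samples 1 to 6, against 16.3 and 52.4 CPM in double samples 1 and 2. Ezh1, its paralog with weaker activity, had 37.9, 42.4, 50.5, 32.6, 43.1 and 41.7 CPM in the triple samples, against 95.2 and 46.0 CPM in the double samples. Double sample 1 was thus the lowest of all samples in Ezh2 and the highest in Ezh1, while double sample 2 lay within the triple range for both. The log2 fold changes were 0.63 ± 0.39 (SE; adjusted p = 0.315) for Ezh2 and -0.77 ± 0.26 (SE; adjusted p = 0.104) for Ezh1.

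Against double sample 1 alone, Ezh2 was at 1.72 (adjusted p = 0.00549) and Ezh1 at -1.19 (adjusted p = 0.00692). Against double sample 2 alone they were at 0.02 and -0.16. Double sample 1 was also the sample with the lowest sum of proliferation genes given above. The mean log2 level of that list was 4.15 in double sample 1, against 5.58 to 6.03 in the triple samples and 5.94 in double sample 2. A fit with this mean as a term nearly repeats the fit without double sample 1, so proliferation and that sample cannot be told apart.

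Suz12 and Eed, the subunits that hold the methyltransferase together and bind methylated histone H3, showed no such split. Suz12 was at 73.3, 68.5, 58.6, 74.9, 38.5 and 58.9 CPM in triple samples 1 to 6, against 65.0 and 83.4 CPM in the double samples. Eed was at 48.8, 44.1, 40.8, 43.6, 29.6 and 34.7 CPM in the triple samples, against 34.8 and 43.9 CPM in the double samples. Triple sample 5 was the lowest of all 8 for both genes. Their log2 fold changes were -0.26 (95% interval -0.83 to 0.32) for Suz12 and 0.03 (-0.47 to 0.54) for Eed. Rbbp4 and Rbbp7, histone-binding subunits shared with other complexes, stood at 201 to 249 and 190 to 259 CPM in the triple samples, against 297 and 242 CPM for Rbbp4 and 199 and 208 CPM for Rbbp7 in the double samples.

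Among the 6 accessory genes of PRC2, which help to place the complex on chromatin, none was called by edgeR, and 1, Epop, did not overlap between the groups. Epop was also the 1 gene of the 6 with an unadjusted p under 0.05 and the 1 that DESeq2 called. Of all genes tested, edgeR called 8.35% and DESeq2 19.1%, 24.1% did not overlap and 27.9% had an unadjusted p under 0.05. Epop, which links PRC2 to elongin B and C, had 5.51, 6.33, 6.61, 8.35, 7.98 and 13.6 CPM in triple samples 1 to 6, against 3.08 and 3.86 CPM in the double samples. All 6 triple samples were higher, and triple sample 6 was well above the rest. The log2 fold change of 1.22 ± 0.41 (SE) did not pass the test (adjusted p = 0.103). Phf19, a Polycomb-like protein, was at 12.1 to 22.8 CPM in the triple samples and at 5.14 and 12.2 CPM in double samples 1 and 2. Its log2 fold change was 0.87 ± 0.39 (SE; adjusted p = 0.184), and it was 1.64 (adjusted p = 0.0239) without double sample 2. Jarid2, Aebp2, Phf1 and Mtf2 had log2 fold changes of -0.27, -0.01, 0.01 and 0.16. For Phf1, 39.3% of the exon bases overlap the antisense gene Cuta, and since the use of strand in counting is unknown its counts may hold reads of Cuta.

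The catalytic subunits of PRC1 passed neither the test nor an unadjusted p of 0.05, and DESeq2 called neither. The shares of all genes were 8.35%, 27.9% and 19.1%. Rnf2 was at 33.2 to 63.8 CPM in the triple samples and 43.5 and 59.7 CPM in the double samples, a log2 fold change of -0.05 (95% interval -0.68 to 0.57). Ring1 was at 15.02 to 25.6 CPM in the triple samples and 32.99 and 23.97 CPM in the double samples, with a log2 fold change of -0.40 (-0.95 to 0.16). Both genes overlapped between the groups. The PRC1 genes that did not overlap belonged to the Pcgf, Cbx and variant PRC1 families.

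Pcgf proteins pair with Rnf2 or Ring1 and set which kind of PRC1 is formed. Pcgf5 (chromosome 19, 36348309 to 36460970, plus strand), which defines a variant PRC1 without a Cbx subunit, had 34.3, 34.3, 21.5, 26.2, 30.03 and 26.8 CPM in triple samples 1 to 6, against 53.7 and 54.0 CPM in double samples 1 and 2. Every triple sample was well below both double samples, which had nearly the same level. Pcgf5 fell by 0.90 ± 0.20 on the log2 scale (SE; adjusted p = 0.0327), which is 1.86-fold lower in the triple samples. The size of the change was -0.91 without double sample 1 and -0.88 without double sample 2, but the call was lost without double sample 1 (adjusted p = 0.145) and without triple sample 1, 4, 5 or 6 (0.0515, 0.0638, 0.0582 and 0.0613). It was also lost with a term for the description code, SN930 or any other (0.0503), and with no filter on low counts (0.0502). The same held with the proliferation list as a term (0.107).

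Pcgf2 and Bmi1, the alternative Pcgf subunits of canonical PRC1, differed in opposite directions. Pcgf2 (chromosome 11, 97688823 to 97700497, minus strand), also known as Mel18, had 47.1, 38.2, 36.2, 59.9, 50.02 and 50.5 CPM in triple samples 1 to 6, against 24.1 and 28.4 CPM in the double samples. Bmi1 (chromosome 2, 18677018 to 18686629, plus strand) had 66.1, 69.5, 66.3, 69.9, 49.1 and 57.6 CPM in the triple samples, against 78.9 and 85.6 CPM in the double samples. Neither gene overlapped between the groups. Pcgf2 was at 0.84 ± 0.23 (SE; adjusted p = 0.0595) and Bmi1 at -0.38 ± 0.17 (SE; adjusted p = 0.189) on the log2 scale, so neither passed the test over all genes. Pcgf2 passed without double sample 2 (0.98, adjusted p = 0.0457), with upper-quartile scaling (0.90, adjusted p = 0.0488) and in DESeq2 (0.81, adjusted p = 0.00960).

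Pcgf3, the closest paralog of Pcgf5, was at 117, 90.1, 85.9, 98.3, 89.7 and 95.9 CPM in triple samples 1 to 6, against 84.4 and 104 CPM in the double samples. Its log2 fold change was 0.03 (95% interval -0.36 to 0.42). Pcgf1 and Pcgf6 had log2 fold changes of 0.09 (-0.51 to 0.69) and -0.45 (-1.01 to 0.12). Pcgf6 was 1 of 4 genes, with Suz12, Mbd6 and Phf1, in which only double sample 2 lay outside the triple range, at 22.6 CPM, against 13.3 CPM in double sample 1 and 10.99 to 14.5 CPM in the triple samples.

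The Cbx genes of canonical PRC1 were the family with the most divided values. Cbx proteins read the methyl mark of PRC2 through a chromodomain, and 1 of them occupies each canonical PRC1. Cbx7 (chromosome 15, 79915807 to 79971119, minus strand) had 4.15, 10.5, 10.3, 8.98, 8.55 and 8.50 CPM in triple samples 1 to 6, against 41.2 and 21.2 CPM in double samples 1 and 2. All triple samples were far below both double samples, and triple sample 1 was the lowest. Cbx7 fell by 1.88 ± 0.35 on the log2 scale (SE; adjusted p = 0.0201), which is 3.67-fold lower in the triple samples. With the proliferation list as a term Cbx7 was at -1.30 and lost its call (edgeR adjusted p = 0.120). Without double sample 1 it was at -1.32 and lost its call (adjusted p = 0.195), and without double sample 2 it was at -2.26 (adjusted p = 0.00581). The 10 embryonic muscle genes also had lower means in the triple samples than in the double samples. Of these, edgeR called 10, DESeq2 6 and limma-voom 8, against 8.35%, 19.1% and 6.04% of all genes. Their part in the level of Cbx7 was not tested.

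Cbx8 (chromosome 11, 119036305 to 119040969, minus strand) ran the other way, at 8.56, 9.91, 9.63, 6.80, 9.22 and 9.64 CPM in triple samples 1 to 6, against 2.02 and 4.77 CPM in double samples 1 and 2. Every triple sample was above both double samples. With a log2 fold change of 1.40 ± 0.38 (SE), Cbx8 missed the threshold (adjusted p = 0.0578). It was 2.16 with adjusted p = 0.00599 without double sample 2 and 0.90 with adjusted p = 0.251 without double sample 1, and DESeq2 called it (adjusted p = 0.00101).

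Cbx6 (chromosome 15, 79823896 to 79834688, minus strand) was also higher in each triple sample, at 207, 112, 183, 155, 220 and 145 CPM, against 36.9 and 111 CPM in double samples 1 and 2. Triple sample 2 and double sample 2 had almost the same level, and double sample 1 was far below. The log2 fold change was 1.2 ± 0.43 (SE; adjusted p = 0.115), and it was 2.22 (adjusted p = 0.00792) without double sample 2. Cbx2 had 13.8, 11.7, 10.8, 16.7, 13.8 and 14.6 CPM in the triple samples, against 13.4 and 12.5 CPM in the double samples. Its log2 fold change was 0.06 (95% interval -0.47 to 0.60). Of the exon bases of Cbx6, 5.31% are shared with Npcd on the same strand, and 1.54% of those of Cbx7 with Apobec3 on the other.

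The upstream sequences of the called genes Cbx7 and Pcgf5 and of Cbx8 are shown because the first pair fell and Cbx8, which did not pass the test, gave the most divided ratio with Cbx7. Each run covers 190 bases, from base 250 to base 61 before the RefSeq start (GRCm38.p6), and is written 5′ to 3′ on the gene's strand, at chr15:79932707-79932896 for Cbx7, chr11:119040974-119041163 for Cbx8 and chr19:36348079-36348268 for Pcgf5. The Cbx7 run lies inside the gene span given above and not before the annotated 5′ end at 79971119. Pcgf5 had 3 RefSeq windows, and the window nearest the annotated 5′ end was taken. Capitals mark GGGCGG, the core of the GC box, and CCAAT, the CCAAT box, on either strand. No match of one overlapped the other.
Cbx7: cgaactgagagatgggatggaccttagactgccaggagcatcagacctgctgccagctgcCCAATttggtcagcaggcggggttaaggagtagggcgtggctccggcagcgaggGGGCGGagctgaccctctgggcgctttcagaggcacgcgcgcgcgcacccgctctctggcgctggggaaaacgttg
Cbx8: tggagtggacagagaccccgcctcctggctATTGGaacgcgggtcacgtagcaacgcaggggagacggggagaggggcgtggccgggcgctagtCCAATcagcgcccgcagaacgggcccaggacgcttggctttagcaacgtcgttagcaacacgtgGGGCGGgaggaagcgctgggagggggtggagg
Pcgf5: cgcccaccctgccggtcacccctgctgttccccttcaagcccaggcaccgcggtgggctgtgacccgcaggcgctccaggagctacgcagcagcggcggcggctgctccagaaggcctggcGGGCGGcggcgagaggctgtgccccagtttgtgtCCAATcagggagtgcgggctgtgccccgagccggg

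All 3 runs hold 1 GGGCGG, and they hold 1, 2 and 1 CCAAT for Cbx7, Cbx8 and Pcgf5. The share of all 32851 RefSeq windows of this length was 22.8% for GGGCGG and 26.7% for CCAAT. The 38 Polycomb and Bap1 genes with a window in the table had 53 windows, of which 36 held GGGCGG and 13 held CCAAT. By gene, 29 of the 38 held GGGCGG and 11 held CCAAT in at least 1 window. The 53 windows had a median of 13 CpG, against 4 over all windows. Both boxes were chosen after the windows were seen, and a match is a description of the letters only.

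**Figure D2:**
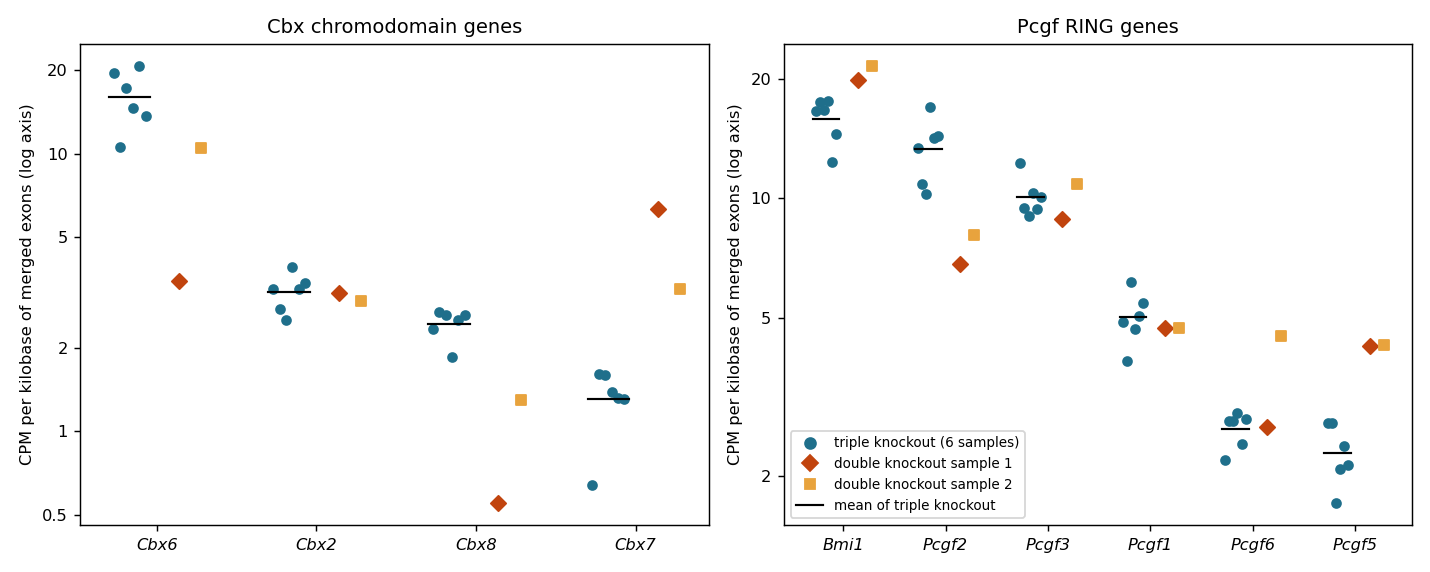
Levels of the Cbx and Pcgf genes in CPM per kilobase of merged exons (vertical axis, log scale), triple samples on the left and double samples on the right of each gene. Cbx7 and Pcgf5 lie lower in all 6 triple samples, whereas Cbx8, Cbx6 and Pcgf2 lie higher.

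Per kilobase of merged exons, a scale on which genes can be compared, Cbx6 led the 4 Cbx genes in all 6 triple samples, at a mean level of 16.1 ± 3.83 (SD, n = 6), and in double sample 2, at 10.5. In double sample 1 Cbx7 led, at a level of 6.35 per kilobase, and Cbx6 had 3.48. Cbx7 was the lowest of the 4 in the triple samples, with a mean level of 1.31 ± 0.35 per kilobase (SD, n = 6), below Cbx8 at 2.44 ± 0.32. In double samples 1 and 2 the order of these genes was the reverse, with levels of 6.35 and 3.27 per kilobase for Cbx7 and 0.551 and 1.30 for Cbx8. Among the Pcgf genes Bmi1 had the highest level per kilobase in both double samples and in 5 of 6 triple samples. With the longest transcript as the length, Pcgf2 led the triple mean in its place, at 18.9 against 17.6 per kilobase. The other 11 of 12 families had the same leading gene of the triple mean with either length.

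Phc1, Phc2 and Phc3, which encode the proteins that cluster PRC1 by polymerising, overlapped between the groups, with log2 fold changes of -0.46, 0.02 and -0.16. Of the 4 genes of variant PRC1, none was called by edgeR (8.35% of all genes). An unadjusted p under 0.05 was found for 2 (27.9% of all genes), and DESeq2 called 1, Bcor (19.1% of all genes). Rybp was higher and Bcor lower without overlap, as 24.1% of all genes were in either direction. Rybp, whose protein binds Rnf2 and stimulates H2A ubiquitination, had 32.1, 20.4, 20.3, 24.5, 21.7 and 19.1 CPM in triple samples 1 to 6, against 12.5 and 16.3 CPM in the double samples. All triple samples were higher, triple sample 6 only slightly, and the log2 fold change was 0.68 ± 0.26 (SE; adjusted p = 0.135). Yaf2, its paralog, had 61.7, 32.2, 31.6, 52.9, 38.4 and 49.2 CPM in the triple samples and 46.7 and 45.2 CPM in the double samples, a log2 fold change of -0.05 (95% interval -0.69 to 0.58).

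Bcor, a corepressor that works with Pcgf1, had 40.5, 37.0, 31.6, 31.4, 43.7 and 40.9 CPM in triple samples 1 to 6, against 72.8 and 49.0 CPM in the double samples. All triple samples were lower, and double sample 1 was far above the rest. The log2 fold change of -0.70 ± 0.21 (SE) missed the threshold (adjusted p = 0.0702), and Bcor was called without double sample 2 (-0.94, adjusted p = 0.0158) and in DESeq2 (-0.74, adjusted p = 0.0228). Kdm2b, which brings variant PRC1 to CpG islands, was at 24.9 to 50.1 CPM in the triple samples and 23.8 and 27.6 CPM in the double samples, a log2 fold change of 0.30 (95% interval -0.37 to 0.97).

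The 2 H3K27 demethylases and Usp16, another deubiquitinase of histone H2A, gave no call in edgeR or DESeq2. An unadjusted p under 0.05 was found for 1 of the 3, Usp16. Over all genes these shares were 8.35%, 19.1% and 27.9%. Kdm6a, also known as Utx, had 34.1, 32.4, 38.6, 37.7, 22.3 and 24.3 CPM in triple samples 1 to 6, against 41.0 and 39.2 CPM in the double samples. All triple samples were lower, triple samples 3 and 4 by little, and the log2 fold change was -0.35 ± 0.24 (SE; adjusted p = 0.375). Kdm6b was at 51.8 to 85.1 CPM in the triple samples and 62.5 and 64.3 CPM in the double samples, with a log2 fold change of 0.28 (95% interval -0.19 to 0.76). Usp16 had 60.4, 57.4, 54.8, 54.3, 35.8 and 53.4 CPM in the triple samples, against 95.9 and 60.9 CPM in the double samples. Triple sample 1 nearly reached double sample 2. The log2 fold change of Usp16 was -0.57 ± 0.24 (SE; adjusted p = 0.156), and it was -0.85 (adjusted p = 0.0392) without double sample 2 and -0.21 (adjusted p = 0.803) without double sample 1.

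**Figure D3:**
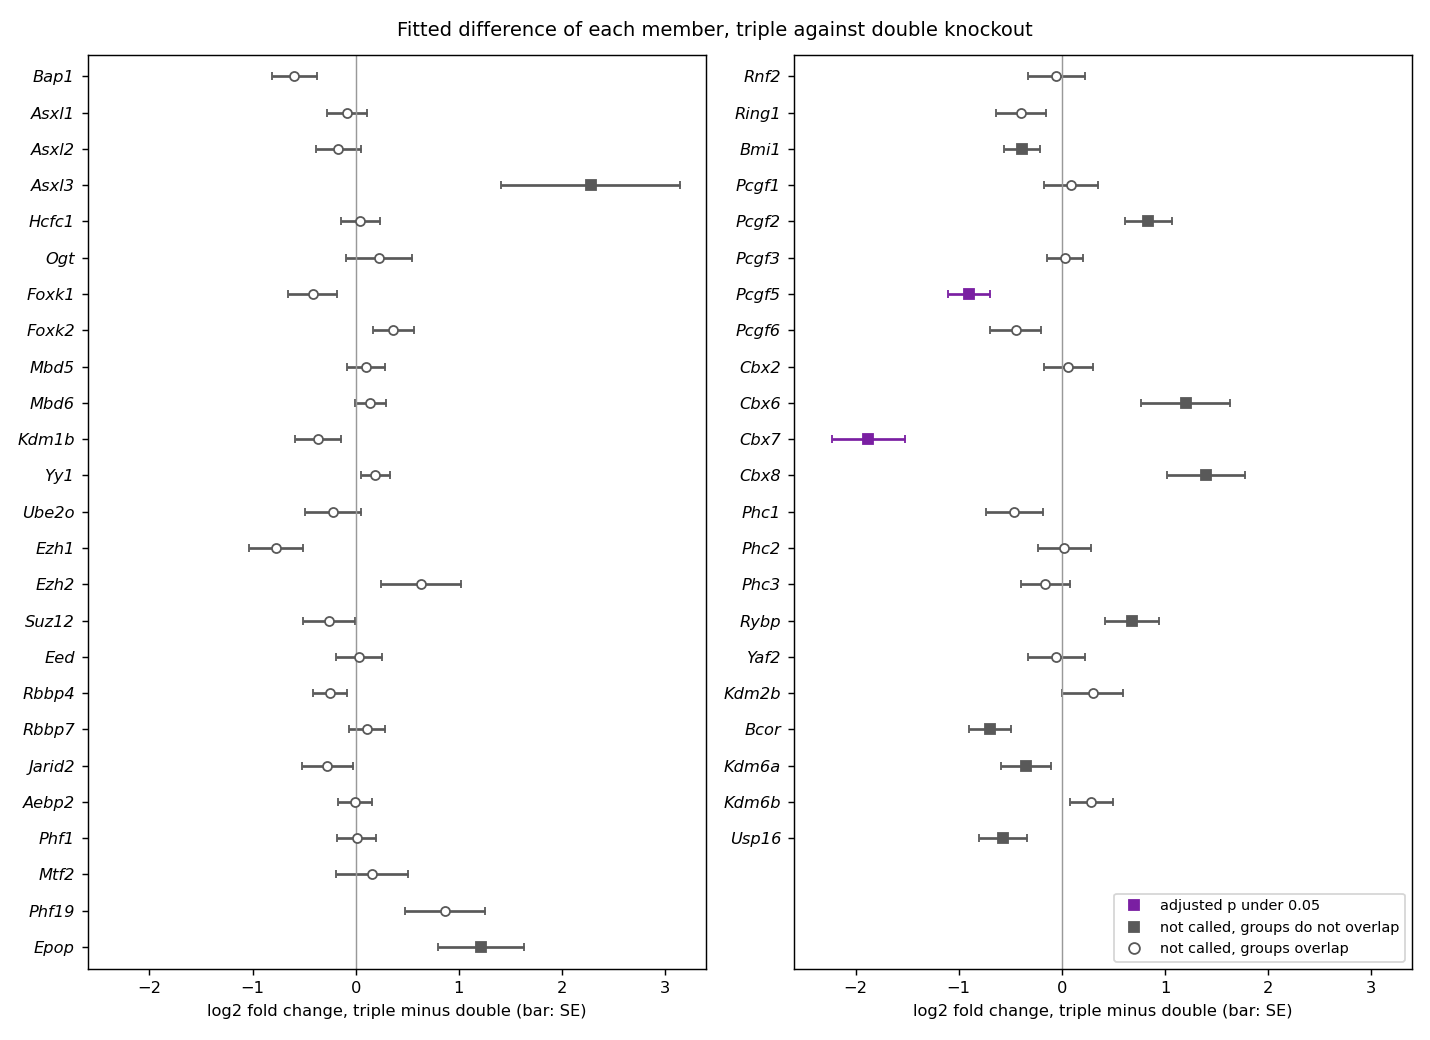
Log2 fold change of each of the 47 genes, triple minus double (horizontal axis), with its standard error from edgeR. Purple marks the called genes Cbx7 and Pcgf5, filled squares genes whose groups did not overlap, and open circles genes whose groups overlapped.

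Ratios of paralogs within a sample do not depend on library scaling, and 15 pairs were compared. Of these, 6 pairs did not overlap between the groups, each with the smallest p that an exact 2-sided permutation test over the 28 ways to divide the samples into 6 and 2 can give, 0.0357, and 0.0893 after Benjamini-Hochberg adjustment over the 15 pairs. No pair was therefore under 0.05 after adjustment. The members of these pairs were listed with the single-gene results known, so the ratios restate those levels free of scaling. Without either double sample the smallest possible exact p was 0.143, and without 1 triple sample it was 0.0476.

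The Cbx7 to Cbx8 ratio was the most divided. It was 0.486 to 1.32 in the triple samples, with a median of 0.989, against 20.2 and 4.43 in double samples 1 and 2. On the log2 scale the difference was -3.37, and it was -2.27 without double sample 1 and -4.46 without double sample 2. The Cbx6 to Cbx7 ratio was 10.7 to 49.8 in the triple samples, against 0.897 and 5.25 in the double samples, a log2 difference of 3.23. The Cbx2 to Cbx7 ratio was 1.04 to 3.32 in the triple samples, against 0.327 and 0.592 in the double samples, a log2 difference of 1.91. These 3 pairs share Cbx7, so they are not independent of each other.

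The Bmi1 to Pcgf2 ratio was nearly the same in both double samples, at 3.28 and 3.01, against 0.981 to 1.83 in the triple samples. Its log2 difference was -1.22, and it was -1.16 without double sample 1 and -1.28 without double sample 2. The Pcgf5 to Pcgf3 ratio was 0.251 to 0.381 in the triple samples, against 0.636 and 0.520 in the double samples, a log2 difference of -0.95. The Rybp to Yaf2 ratio was 0.388 to 0.641 in the triple samples, against 0.267 and 0.360 in the double samples, a log2 difference of 0.76. In the Ezh2 to Ezh1 ratio the groups overlapped, at 0.769 to 1.95 in the triple samples and 0.172 and 1.14 in double samples 1 and 2. Its log2 difference was 1.54 (exact 2-sided permutation p = 0.0714, adjusted over the pairs 0.119), and 0.17 without double sample 1.

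**Figure D4:**
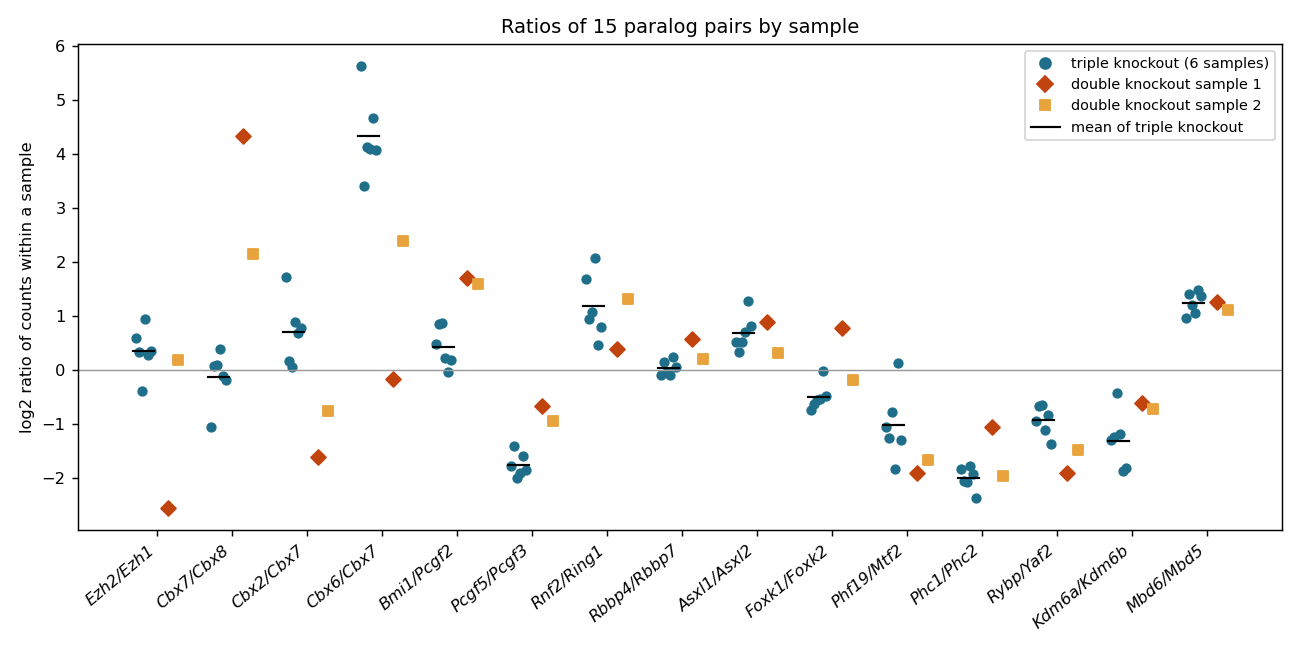
Log2 ratio of counts of 2 paralogs within each sample for the 15 pairs, triple samples and double samples. The Cbx7 to Cbx8 ratio lies between -1.04 and 0.40 in the triple samples and at 4.33 and 2.15 in double samples 1 and 2.

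The 2 double samples differed in how far they lay from the triple samples. Double sample 1 lay outside the range of the 6 triple samples for 30 of the 47 genes (63.8%; 67.8% of all genes tested), 16 above and 14 below. Double sample 2 did so for 17 genes (36.2%; 41.1% of all genes tested), 8 above and 9 below. In 17 genes double sample 1 alone was outside (36.2%; 37% of all genes tested), and in 4 genes double sample 2 alone (8.51%; 10.2% of all genes tested). The 12 genes called against double sample 1 alone were Asxl3, Ezh2, Phf19, Pcgf2, Cbx6 and Cbx8, which were higher, and Bap1, Ezh1, Pcgf5, Cbx7, Bcor and Usp16, which were lower, against 29.5% of all genes in that fit. That fit assumes that double sample 1 varies like the triple samples and compares with 1 sample, not with a group. Against double sample 2 alone the median log2 fold change was -0.04 over the 47 genes and 0.05 over all genes of that fit.

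The labels carry a code and do not say what it means. It was SN930 in double sample 1 and triple samples 4, 5 and 6. Double sample 2 had SN931, and triple samples 1, 2 and 3 had SN933, SN934 and SN935. These others share no code and were pooled for the fits, also where the description code was a term. Within the SN930 samples Cbx7 was at -2.23 (adjusted p = 0.0303) and Pcgf5 at -0.94 (adjusted p = 0.0615). Within the others they were at -1.36 (adjusted p = 0.436) and -0.86 (adjusted p = 0.379). The direction was the same in both sets, in each of which 1 double sample stood against 3 triple samples. Pcgf2 was at 1.17 (adjusted p = 0.0541) and 0.50 (adjusted p = 0.435), Cbx8 at 2.10 (adjusted p = 0.0605) and 0.96 (adjusted p = 0.333), and Ezh2 at 1.81 (adjusted p = 0.0353) and -0.08 (adjusted p = 0.917) in the SN930 samples and the others.

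**Figure D5:**
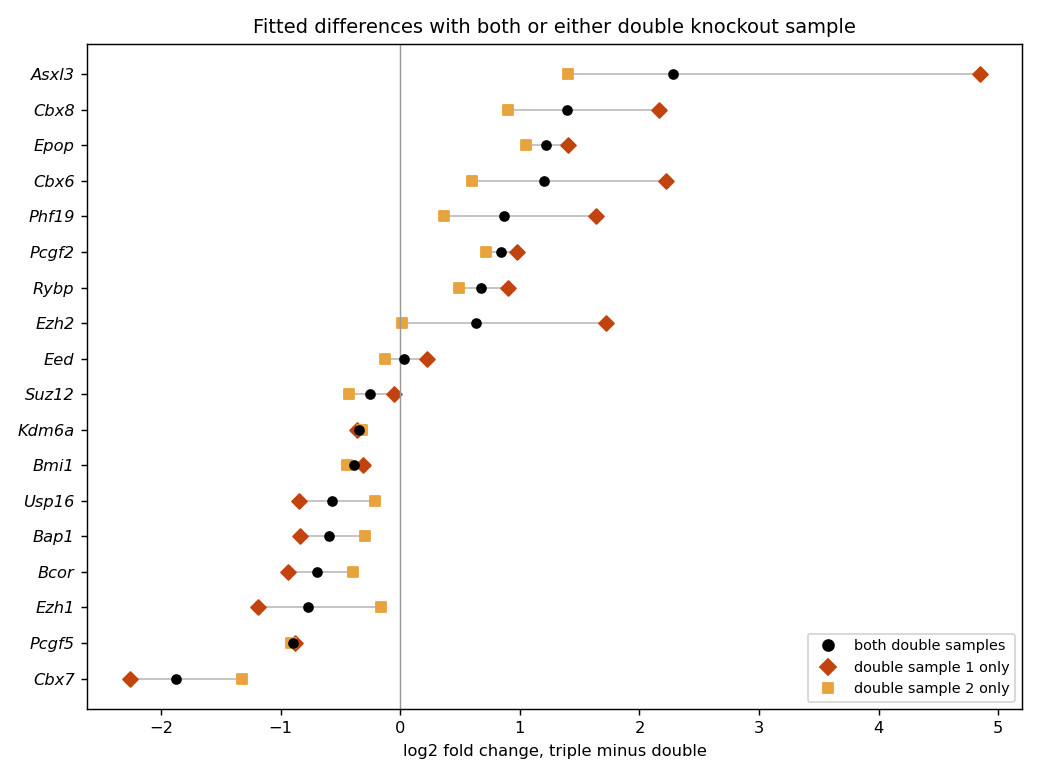
Log2 fold change of the genes, triple minus double (horizontal axis), with both double samples (black), with double sample 1 only (red diamond) and with double sample 2 only (orange square). Pcgf5 keeps its place at -0.90, -0.88 and -0.91, whereas Ezh2 lies at 0.63, 1.72 and 0.02.

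The spread among the triple samples was that of genes at large. The highest over the lowest triple sample ran from 1.16 for Yy1 to 3.22 for Asxl3, and exceeded 2 in Kdm2b, Mtf2, Epop, Cbx7 and Asxl3. Over the 43 genes with a mean of at least 10 CPM, the median SD of log2 levels over the triple samples was 0.26, as it was over the 10501 genes of such level. Triple sample 3 had the lowest triple level in 17 of the 47 genes and triple sample 5 in 11. The highest level lay in triple sample 4 for 12 genes, in triple sample 1 for 11 and in triple sample 5 for 10.

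Genes of neighbouring complexes came from lists written with earlier results known. Of 25 other PRC1 and PRC2 associated genes, 6 had an unadjusted p under 0.05 (27.9% of all genes) and DESeq2 called 4 (19.1% of all genes). In edgeR 1 fell, Skp1a, which encodes a ubiquitin ligase subunit found in a variant PRC1. Skp1a had 127 to 154 CPM in the triple samples, against 260 and 180 CPM in the double samples, with the log2 level changed by -0.66 ± 0.17 (SE; adjusted p = 0.0490). Of 14 tested genes of other histone deubiquitinases and the UCH family none was called by edgeR, 5 had an unadjusted p under 0.05 (27.9% of all genes) and DESeq2 called 3 (19.1% of all genes). Mysm1, an H2A deubiquitinase, had 22.5 to 57.0 CPM in the triple samples, against 200 and 53.3 CPM in double samples 1 and 2, with adjusted p = 0.0591. Usp3 had 27.2 to 38.2 CPM in the triple samples, against 65.9 and 43.3 CPM in the double samples, with adjusted p = 0.0704.

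The 20 Trithorax and COMPASS genes encode mainly histone methyltransferases and their partners, with some H3K4 demethylases. None of them was called by edgeR, 5 had an unadjusted p under 0.05 and DESeq2 called 4, against the same 27.9% and 19.1% of all genes. The smallest p belonged to Kdm5a, an H3K4 demethylase, at 66.5 to 76.9 CPM in the triple samples and 108 and 93.6 CPM in the double samples (adjusted p = 0.0608). Nsd2, an H3K36 methyltransferase, followed, at 170 to 220 CPM in the triple samples and 55.8 and 134 CPM in the double samples (adjusted p = 0.0846). Of 20 tested SWI/SNF genes, whose complexes remodel nucleosomes, 5 had an unadjusted p under 0.05 and DESeq2 called 3, against the same shares of all genes. In edgeR 2 fell. Brd7 had 57.8 to 66.2 CPM in the triple samples, against 136 and 97.2 CPM in the double samples, and fell by 0.94 ± 0.16 on the log2 scale (SE; adjusted p = 0.0134). Smarcd3, a subunit known from heart and muscle, had 14.4 to 29.5 CPM in the triple samples, against 94.2 and 36.1 CPM in the double samples, and fell by 1.5 ± 0.36 (SE; adjusted p = 0.0400). Set beside the 8.35% called over all genes tested, the shares called were 4%, 0%, 0% and 10% in the order of the lists.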

How the data were processed

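RNA-seq of 6 triple and 2 double knockout samples was analysed from whole-number read counts per gene that the authors deposited, 1 table per sample. HTSeq, DESeq2, mm10 and GRCm38 are named in the submitters' processing notes without a stated role. Aligner, annotation release and use of strand in counting are not given in the sources at hand, so that a gene and one antisense to it may share reads. Library preparation followed enrichment of messenger RNA with a NEBNext Ultra II kit, per the labels. Groups came from the genotype label. The 47 genes and all lists were chosen with earlier results of these data known. Symbols and exon lengths came from GENCODE M21, whose coordinates 44 of the 47 genes shared, and upstream sequences from RefSeq (GRCm38.p6). For 1 of 26 genes on a list, Ezhip, no match was found.

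Genes with low counts were removed by filterByExpr, libraries were scaled by TMM, and the test was that of edgeR 4.0.16 (R 4.3.3; quasi-likelihood, triple minus double, no covariate, Benjamini-Hochberg over 17709 genes). Standard errors were derived from the test statistic. Log2 levels used a prior count of 2, and ratios of paralogs 0.5 added counts. Pairs were tested by exact permutation. The steps were tested on simulated data. Bap1, called genes, genes without overlap, Ezh1, Ezh2, Suz12, Eed and the pairs without overlap are given in full, the rest in ranges, and from each other list up to 4 called genes or up to 2 of smallest p. Alternatives were DESeq2 1.42.0, limma-voom (limma 3.58.1), RLE and upper-quartile scaling, robust dispersion, no filter or a filter of 1 CPM in 2 or more samples, the description code or the proliferation list as a term, another added count or gene length, and leaving out each sample. The description code entered the fit only as SN930 or any other code. Depth differed little between samples. Counting error was not compared with the spread between them, and counts were low for some genes, such as 3 of Asxl3 and 50 of Cbx8 in double sample 1.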

Additional observations from a re-analysis of the deposited data

Results flagged for a closer look

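Over the 6 triple samples, 47 genes and 15 ratios, 62 series of values in all, were checked for a sample far from the others. On the log2 scale, the gap to the nearest sample was set against the whole range by Dixon's test at its 95% limit, and chance flags about 1 in 20 groups. In 5 of the 62 a sample stood out, and in 3 of these it was triple sample 5.

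Suz12 was at 38.5 CPM in triple sample 5 and at 58.6 to 74.9 CPM in the other triple samples, with a gap of 0.631 of the range in log2 CPM. Usp16 was at 35.8 CPM in the same sample and at 53.4 to 60.4 CPM in the others, with a log2 gap of 0.765. The log2 ratio of Foxk1 to Foxk2 was -0.0193 in triple sample 5 and -0.74 to -0.48 in the others, with a gap of 0.647. Cbx7, one of the called genes, was at 4.15 CPM in triple sample 1 and at 8.50 to 10.5 CPM in the others, with a log2 gap of 0.776. Without triple sample 1 the log2 fold change of Cbx7 was -1.73 and it stayed called (edgeR adjusted p = 0.0238). Kdm6b was at 51.8 CPM in triple sample 3 and at 76.7 to 85.1 CPM in the others, with a log2 gap of 0.791.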

How the results depend on the processing

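Of the 47 genes, 2 were called, and DESeq2 called 8, the fit without a filter on low counts 1, the fit with the description code as a term 1 and the fit with the proliferation list as a term 0. These fits called 3380, 1435, 962 and 369 of all genes, against 1478. Of the calls, 44.3% were higher in DESeq2, against 35.2%. Leaving out 1 sample gave 0 to 12 calls among the 47 genes and 315 to 5579 among all genes, both extremes from leaving out a double sample. Genes without overlap numbered 12 to 30 in these fits, the highest without double sample 2, where 67.8% of all genes did not overlap. The proliferation term nearly marks double sample 1. Fits within the 2 sets of description codes, chosen after the data were seen, called 5 and 0 of the 47 genes, and 2156 and 1 of all genes. Some of these fits hold fewer samples than the main fit, and the causes of these shifts were not tested. No paired analysis was possible because the labels give no replicate numbers.

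Cbx7 was called in 16 of 19 alternatives, with log2 fold changes of -2.26 to -1.30 over all 19. Every alternative that called Cbx7 held double sample 1. Its call was lost in the fits that lacked this sample and with the proliferation term, which nearly marks it. Pcgf5 was called in 9 of 19, with log2 fold changes of -0.96 to -0.83 over all 19. Neither gene changed sign in any of these alternatives. With 2 double samples, of which 1 stood apart, a group mean rests on few values, and genes that missed the threshold cannot be taken as equal between the groups. The level of Asxl3 in double sample 1 rests on 3 counts.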
